A study of Mus musculus with 8 samples.

Results

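Neurotransmitter receptors are the membrane proteins through which neurons, and many progenitors and glia, sense GABA, glutamate, glycine, acetylcholine, monoamines and opioid peptides. Probes for them were chosen by gene symbol from the platform's annotation: the subunits of the GABA-A and GABA-B receptors, the ionotropic and metabotropic glutamate receptors, the muscarinic and nicotinic acetylcholine receptors, and the serotonin, dopamine, glycine, adrenergic and opioid receptors. The choice found 88 probes for 77 genes among the 21582 probes of the array. A single one of them, Grid2ip, is no receptor: it encodes a scaffold protein that binds a glutamate receptor of the delta type.

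RNA came from neurospheres, which are suspended balls of dividing neural precursors, prepared from cerebral cortex of mouse embryos on gestational day 12.5. Control cultures grew in mitogenic medium without ethanol, and exposed cultures grew in the same medium with ethanol at 320 mg/dl for 5 days. Differentiation of both followed, by removal of EGF and LIF (epidermal growth factor and leukaemia inhibitory factor) from the medium. The exposed cultures spent those 3 days free of ethanol, and both kept basic fibroblast growth factor. Strain, sex and genotype were not given in the sources used here. Control and exposed RNA were hybridised together on 8 two-colour arrays. On replicates 1 to 4 the exposed RNA carried Cy3, and on replicates 5 to 8 it carried Cy5. The labels do not tie arrays to separate cultures. The p-values therefore measure only how these arrays vary, and that spread may be technical.

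The files hold a single log2 ratio per probe and array and no intensities, and no source says which condition or which dye was divided by which. Each ratio was therefore centred on its array's median and split into a shared and a turning part. The shared part averages both dye orientations, and holds the effect of ethanol if the ratios set condition against condition. The turning part measures the distance from the shared part to the mean of each orientation, positive where ratios were higher with exposed RNA in Cy5, and holds the effect of ethanol if the ratios set dye against dye. Signs are as deposited, and neither sign tells whether a transcript was more or less abundant after exposure. A ratio also carries no level, so it cannot show which receptor was abundant, nor whether the cultures held the cells their label names. In RNA of whole cultures, fewer cells of a type and less RNA per cell cannot be told apart.

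Receptors for transmitters fall into ion channels built from several subunits and single-chain receptors coupled to G proteins. GABA-A and glycine receptors are chloride channels, while most ionotropic glutamate receptors and all nicotinic receptors pass cations. In the developing cortex GABA and glutamate act on progenitors and migrating neurons before synapses form, and GABA then often depolarises cells. Ethanol is known to act directly on several of these channels, above all GABA-A, glycine and NMDA receptors.

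Of the 88 probes, 65 (73.9%) had computable ratios on 3 or more arrays per orientation and entered the test, against 71.1% of all probes. They stand for 59 genes: 37 probes had values on 8 arrays, 19 on 7 and 9 on 6. Ratios that could not be computed made up 16.9% of the receptor values and 17.1% of all values. Adjusted over all 15345 tested probes, no receptor passed 0.05 in the shared part (limma, smallest adjusted p = 0.180 among receptors and 0.136 among all probes, background 0%). In the turning part 1 of 65 receptors passed, the GABA-A subunit gene Gabrq, which is 1.54% against 1.56% of all tested probes. At an unadjusted p under 0.05, 10 receptors stood out in the shared part (15.4%, against 13.9% of all probes), so the shared part held about as many as the background. Of these 7 were negative (10.8%, against 9.01%) and 3 positive (4.62%, against 4.88%). Shared parts over 2 in size were found for 0 receptors (1.32% of all probes), and turning parts over 2 in size for 3 (4.62%, against 2.3%): Gabre, Gabrb1 and Gabrq. At size 1 the counts were 11 in the shared part (16.9%, against 15.2%) and 16 in the turning part (24.6%, against 15.6%).

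In the turning part, 16 receptor probes had an unadjusted p under 0.05 (24.6%), where 13.8% of all probes did. The negative side held 13 of them (20%, against 5.14% of all probes) and the positive side 3 (4.62%, against 8.69%). This count depended on the arrays and on the probes taken. It was 8 of the 37 probes with values on all 8 arrays (21.6%, against 14.8%), and 4 of 54 (7.41%, against 9.61%) without the arrays whose codes end in r, replicates 3, 4 and 8. Leaving out single arrays tested 43 to 58 receptor probes and gave 8 to 15. It was 8 of 43 without replicate 2 (18.6%, against 13.1%) and 9 of 46 without replicate 3 (19.6%, against 13.8%). Without replicate 4 it was 10 of 47 (21.3%, against 12.4%), and without replicate 6 it was 10 of 55 (18.2%, against 12.3%). Without replicate 8 it was 9 of 51 (17.6%, against 11.6%). With any single array left out, the receptor share stayed above that of all probes. The median turning part of the 65 receptor probes was -0.13, against 0.11 over all tested probes, and 38 of 65 were negative (58.5%, against 43.1%). The sign of that median was not stable: it was 0.18 with the values as deposited, where all probes had 0.42, and 0.13 over the probes with all 8 values, where all probes had 0.14. It was also above 0, at most 0.06, without replicate 2, 3, 4, 5 or 8 and without the r arrays. In the shared part the receptor median was -0.10, with 34 of 65 negative (52.3%), and that of all probes -0.06, with 53.9% negative.

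**Figure D1:**
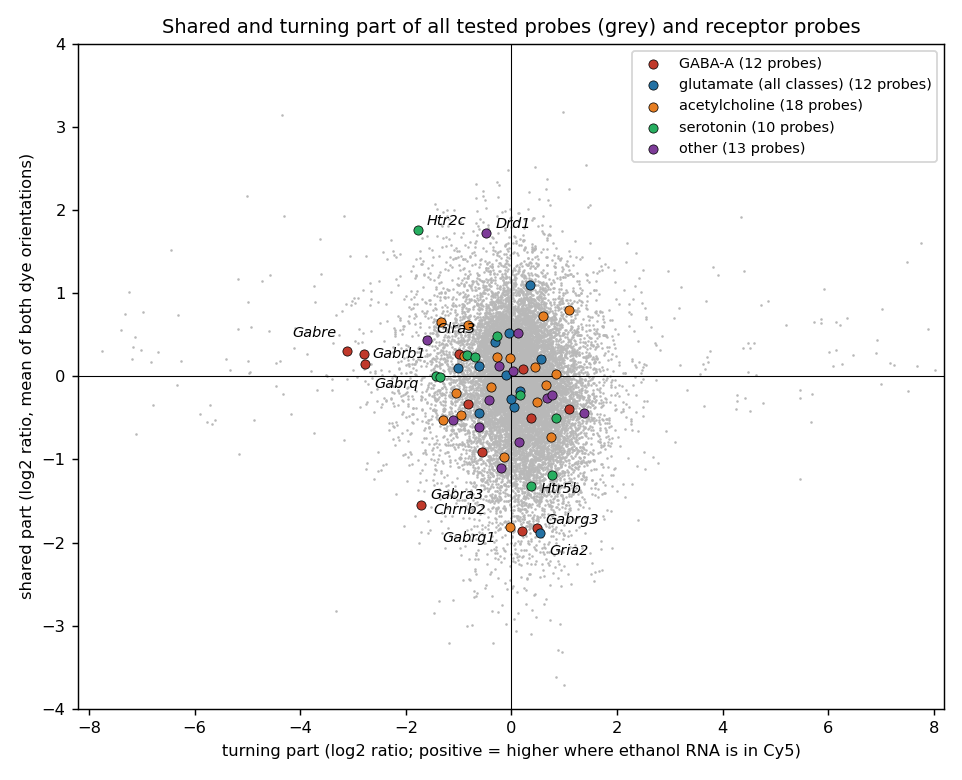
Turning part (horizontal axis) and shared part (vertical axis) of every tested probe in log2 ratio units, with all 15345 probes in grey and the 65 receptor probes coloured by transmitter. Gabre, Gabrb1 and Gabrq lie apart on the left at -3.12, -2.80 and -2.77, and Gria2, Gabrg1, Gabrg3 and Chrnb2 lie lowest in the shared part, between -1.89 and -1.81.

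GABA-A receptors, the main inhibitory channels of the mature brain, held the 3 receptor probes that turned farthest with the dye, Gabre, Gabrb1 and Gabrq. Of the 18 probes for 14 subunit genes, 12 probes for 10 genes were tested. Their median turning part was -0.69 with 7 of 12 negative, and their median shared part -0.36 with 7 of 12 negative. At an unadjusted p under 0.05 stood 5 of 12 in the turning part (13.8% of all probes) and 3 of 12 in the shared part (13.9% of all probes). Array medians of the 12 probes ran from -1.32 to 1.59 with exposed RNA in Cy3 and from -2.14 to -1.19 with exposed RNA in Cy5.

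Gabrq encodes the theta subunit, which occurs mainly in hypothalamic and brainstem neurons. With exposed RNA in Cy3 its centred log2 ratios were 3.52, 2.14, 3.44 and 2.57 on replicates 1 to 4. With exposed RNA in Cy5 they were -1.24, -3.51, -2.22 and -3.52 on replicates 5 to 8. All values of the first set were positive and all of the second negative, and the sets did not overlap. The means were 2.92 ± 0.67 and -2.62 ± 1.10 (SD, n = 4 each), giving a turning part of -2.77 ± 0.36 (SE of the fit, n = 8) and a shared part of 0.15 ± 0.36. The turning part passed after adjustment over all probes (limma, adjusted p = 0.00256). Over the alternatives tried its adjusted p ran from 0.00136 to 0.172, and the call ended under 2 of 18 alternatives. These were the fit without the r arrays (-2.57, adjusted p = 0.172), where 5 arrays are left, and the fit with arrays blocked by code number (-2.68, adjusted p = 0.117).

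Gabre and Gabra3, which encode the epsilon and alpha-3 subunits, are the neighbours of Gabrq in a cluster on the X chromosome of the GRCm38.p6 annotation. A single protein-coding gene lies between Gabre and Gabra3, and none between Gabra3 and Gabrq. Gabre had values on 6 arrays: 4.06, 1.23 and 4.98 on replicates 2 to 4, and -0.14, -3.29 and -5.01 on replicates 5, 7 and 8. Its orientations also took opposite signs, but its spread was wide, and a turning part of -3.12 ± 0.72 (n = 6) did not pass (adjusted p = 0.0915). Gabra3 read -3.87, 1.63, 1.93 and 0.96 on replicates 1 to 4 and -3.35, -3.03, -2.90 and -3.71 on replicates 5 to 8. Replicate 1 lay with the Cy5 arrays and apart from the other Cy3 arrays, so that the orientations overlapped. This array also had the lowest share of computable ratios of the 8, 75.4%, and whether that bears on its values was not tested. The turning part of Gabra3 was -1.71 ± 0.59 (n = 8, adjusted p = 0.222), and its shared part was -1.54 ± 0.59 (adjusted p = 0.298). Without replicate 1 its turning part was -2.38 (adjusted p = 0.00391) and its shared part -0.87 (adjusted p = 0.337). The turning part thus passed only without this array, and the shared part did not pass with it or without it. Replicate 1 was singled out because it lay apart, so that fit is no separate test. Without replicate 2 the turning part was -1.46 (limma, adjusted p = 0.368), and without the r arrays -0.99 (adjusted p = 0.771).

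The starts of these 3 neighbouring genes are shown because their probes turned in the same direction, and those of Gabrg1 and Gabrg3 because these gamma subunits were the lowest GABA-A probes in the shared part. Sequences are from RefSeq (GRCm38.p6), 250 bases before to 50 after the gene's start, 5′ to 3′ on the gene's strand, with capitals marking any match to the motifs searched. These were the TATA box TATAAA, the GC box GGGCGG, the E-box CAGCTG of proneural bHLH factors, the half-site TGACG of cAMP-responsive elements and the half-site TTCAGCACC of the neuronal repressor REST, on both strands, none of which contains another.
Gabrq, chrX:72824928-72825227, plus strand: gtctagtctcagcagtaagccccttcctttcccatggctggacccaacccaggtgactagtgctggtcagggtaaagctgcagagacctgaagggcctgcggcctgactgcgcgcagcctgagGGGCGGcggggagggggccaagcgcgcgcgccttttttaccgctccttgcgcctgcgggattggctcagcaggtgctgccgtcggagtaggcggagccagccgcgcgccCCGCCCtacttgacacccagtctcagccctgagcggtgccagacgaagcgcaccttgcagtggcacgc
Gabre, chrX:72274672-72274971, minus strand: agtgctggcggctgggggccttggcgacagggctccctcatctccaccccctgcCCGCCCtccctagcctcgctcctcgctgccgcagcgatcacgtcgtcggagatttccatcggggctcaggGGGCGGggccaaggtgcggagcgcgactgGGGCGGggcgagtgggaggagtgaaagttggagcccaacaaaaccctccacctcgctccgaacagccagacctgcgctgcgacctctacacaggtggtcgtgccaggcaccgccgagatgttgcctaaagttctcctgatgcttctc
Gabra3, chrX:72656870-72657169, minus strand: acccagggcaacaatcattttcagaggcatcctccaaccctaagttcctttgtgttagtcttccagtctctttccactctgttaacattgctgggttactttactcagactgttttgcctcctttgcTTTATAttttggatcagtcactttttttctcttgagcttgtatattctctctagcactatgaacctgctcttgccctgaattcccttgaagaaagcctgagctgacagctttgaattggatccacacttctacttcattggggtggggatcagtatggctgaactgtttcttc
Gabrg1, chr5:70842568-70842867, minus strand: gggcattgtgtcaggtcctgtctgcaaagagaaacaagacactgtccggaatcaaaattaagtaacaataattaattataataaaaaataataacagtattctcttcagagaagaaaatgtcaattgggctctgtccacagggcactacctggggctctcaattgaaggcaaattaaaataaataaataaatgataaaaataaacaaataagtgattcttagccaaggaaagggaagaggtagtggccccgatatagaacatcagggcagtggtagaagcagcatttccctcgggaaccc
Gabrg3, chr7:57387166-57387465, minus strand: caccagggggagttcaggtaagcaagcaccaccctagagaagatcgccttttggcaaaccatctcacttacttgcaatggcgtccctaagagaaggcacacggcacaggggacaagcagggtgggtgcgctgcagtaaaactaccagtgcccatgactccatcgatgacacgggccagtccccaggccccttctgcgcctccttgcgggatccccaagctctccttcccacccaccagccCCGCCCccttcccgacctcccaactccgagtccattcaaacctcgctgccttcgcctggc

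The starts of Gabrq and Gabre are rich in CpG, with 23 and 24 CpG in 300 bases and GC contents of 67% and 66.7%. They hold 2 and 3 GC boxes. The start of Gabra3 between them differs: it has no CpG, a GC content of 43% and a match to the TATA box on the other strand, and it is the first of 2 overlapping starts listed for the gene. Gabrg1 had 3 CpG and no match, and Gabrg3 had 13 CpG and 1 GC box. Among 32851 promoters of this length, 35.7% held the GC box, 13.6% the TATA box, 16.3% the E-box, 20.8% the TGACG half-site and 0.371% the REST half-site. Among the 74 listed starts of 60 receptor genes the shares were 51.4%, 8.11%, 10.8%, 12.2% and 1.35%. A match is a description of letters and was not set against the ratios.

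Gabrb1, for the beta-1 subunit, turned in the same direction as the genes on X but sits on chromosome 5 beside Gabra4, Gabra2 and Gabrg1. It read -2.19, 6.39, 4.83 and 3.20 on replicates 1 to 4, and -3.50, -2.83, -1.999 and -1.80 on replicates 5 to 8. Again replicate 1, the array with the fewest computable ratios, stood with the Cy5 arrays, while replicates 2 to 4 were all above 3. Its turning part of -2.80 ± 0.78 (n = 8) did not pass (adjusted p = 0.127), and without replicate 1 it was -3.67 (adjusted p = 0.00239). Replicate 1 was singled out because it lay apart, so that fit is no separate test. Without replicate 2 the turning part was -2.24 (limma, adjusted p = 0.234), and without the r arrays -2.44 (adjusted p = 0.582). Its neighbours did not share that pattern: Gabra4 had a turning part of 0.38 ± 0.31 and Gabrg1 0.20 ± 0.43. Gabra2 was read by 2 probes that turned opposite ways, as given with the other genes read by several probes.

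The gamma subunits complete most GABA-A receptors, together with alpha and beta chains, and couple them to synaptic anchors. Their tested probes, for Gabrg1 and Gabrg3, were negative on every array with a value, while an untested probe of Gabrg3 was not. Gabrg1, for gamma-1, had values of -2.47, -2.26 and -1.45 on replicates 2 to 4 and of -2.83, -1.77 and -0.38 on replicates 5, 7 and 8. All 6 values were negative and the orientations overlapped. Its shared part was -1.86 ± 0.43 (n = 6, adjusted p = 0.182). Gabrg3, for gamma-3, read -4.14, -1.04, -2.33 and -1.69 on replicates 1 to 4, and -3.22, -0.08, -1.38 and -0.69 on replicates 5 to 8 with its probe X56314. Its 8 values were also all negative, with a shared part of -1.82 ± 0.45 (n = 8, adjusted p = 0.180). Another Gabrg3 probe, untested with values on 4 arrays, read 4.44, 1.17 and 2.11 on replicates 2 to 4 and -1.62 on replicate 5. On the 3 Cy3 arrays where both had values they lay on opposite sides of 0. In all, 4 of 65 receptor probes kept a single sign on every array with a value (6.15%, against 3.57% of all probes): these gamma subunits, Grik2 and Htr5b.

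**Figure D2:**
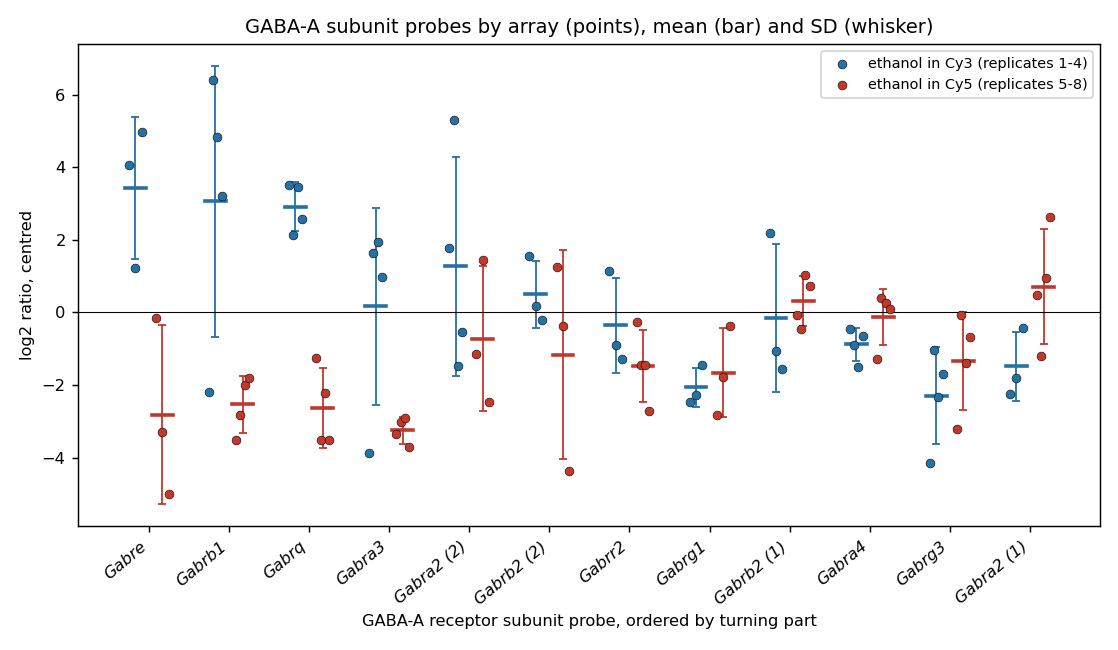
Centred log2 ratios (vertical axis) of the 12 tested GABA-A subunit probes, ordered by turning part, with exposed RNA in Cy3 in blue and in Cy5 in red. Points are arrays, bars are means and whiskers SD; Gabrq shows values above 2 in Cy3 and below -1 in Cy5, while single blue points for Gabrb1 and Gabra3 lie at -2.19 and -3.87, both on replicate 1.

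Gabrr2, for the rho-2 subunit known from retina, had a shared part of -0.91 ± 0.43 and a turning part of -0.56 ± 0.43 (n = 7). It is not among the probes under an unadjusted p of 0.05. Gabra5, Gabra6, Gabrd and Gabrr1 were not tested for want of values. Gabra6, a cerebellar granule cell subunit, had 3 computable ratios of 8.27, -0.63 and 1.12 and 2 at the highest value of their array. Gabbr1, for the ligand-binding chain of the metabotropic GABA-B receptor, was negative on 7 of 8 arrays. It read 0.29, -2.06, -0.84 and -1.16 on replicates 1 to 4 and -1.27, -0.02, -0.32 and -0.97 on replicates 5 to 8, with a shared part of -0.79 ± 0.34 (n = 8, adjusted p = 0.336).

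Glycine receptors are chloride channels of alpha chains and the anchoring beta chain. All 3 genes had negative turning parts. Glra3, for alpha-3, read 1.58, 2.70 and 1.84 on replicates 2 to 4 and -0.39, -0.85, -1.39 and -2.02 on replicates 5 to 8. The sets had opposite signs and did not overlap. Its turning part of -1.60 ± 0.35 (n = 7) was the nearest to the threshold after Gabrq (adjusted p = 0.0644). Glrb, for the beta chain, had a shared part of -1.10 ± 0.52 (n = 8, adjusted p = 0.377) with values from -4.03 on replicate 1 to 0.92 on replicate 2. Glra1 read -0.28 ± 0.35 in the shared part and -0.43 ± 0.35 in the turning part.

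Orientations that did not overlap were found for 8 of 65 receptor probes (12.3%, against 10.9% of all probes), close to the background. They were Gabrq, Gabre, Glra3, Chrna9, Chrm2, Htr2b, Htr2c and Grid2ip. Of these Gabrq, Gabre, Glra3 and Chrna9 took opposite signs on every array with a value (6.15% of receptors, against 4.29%). Only Chrm2 among the 8 lay higher with exposed RNA in Cy5.

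**Figure D3:**
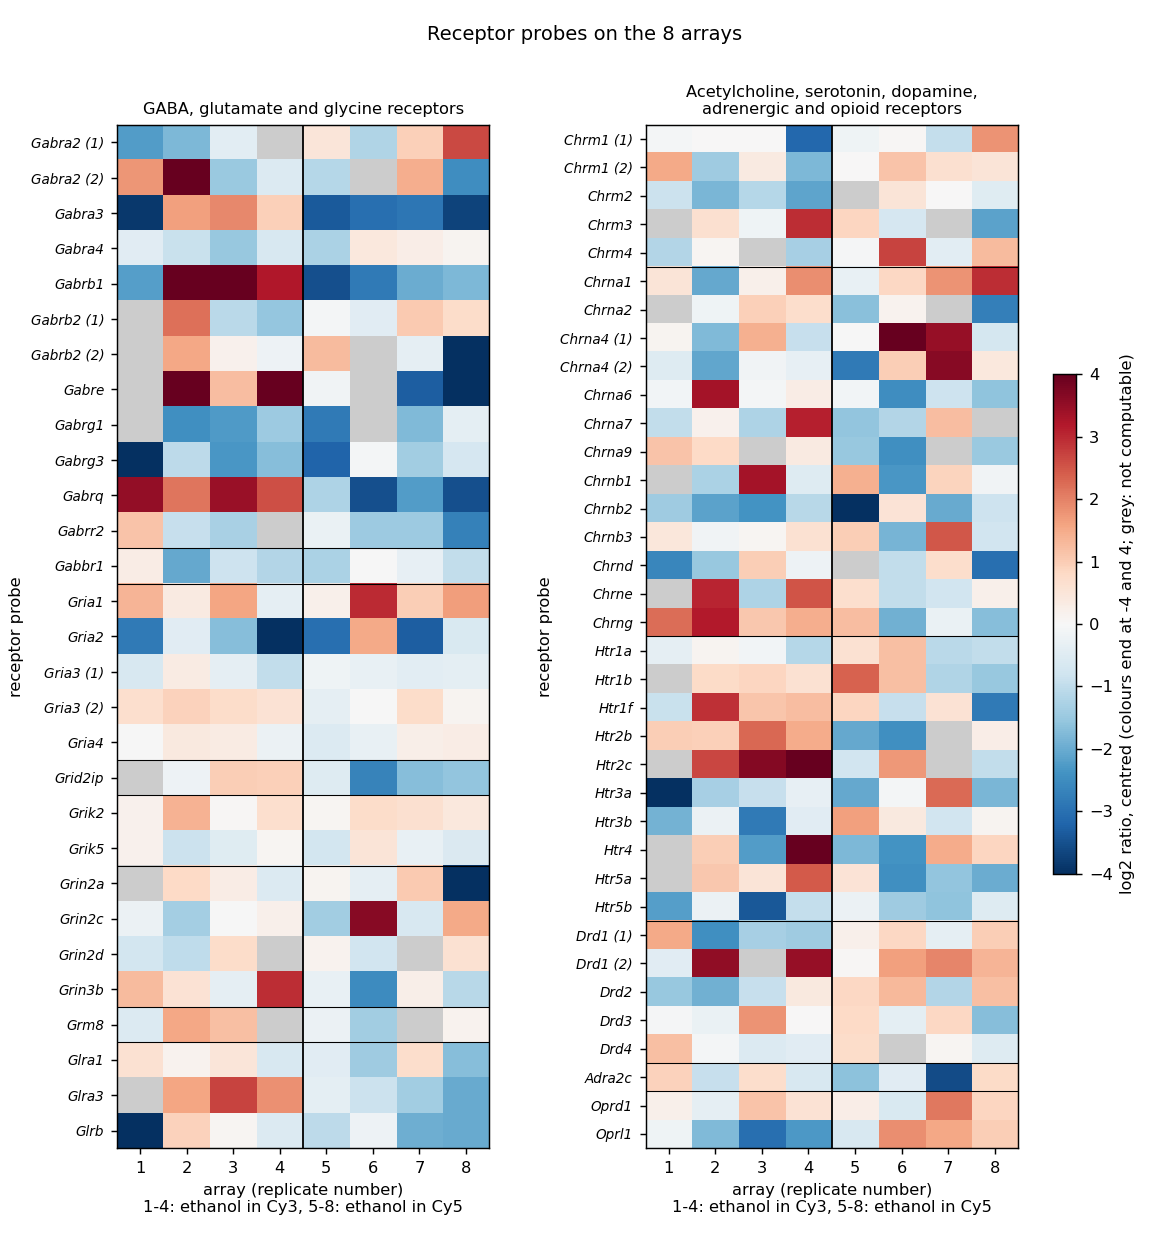
Centred log2 ratios of the 65 tested receptor probes (rows, grouped by class) on the 8 arrays (columns), from blue (below 0) to red (above 0), with ratios that could not be computed in grey. The vertical line divides the dye orientations; Gabrq, Gabre and Glra3 change colour at it, while Gabrg1 and Gabrg3 stay blue across it.

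Ionotropic glutamate receptors carry fast excitation. AMPA receptors are built from Gria subunits, kainate receptors from Grik subunits and NMDA receptors from Grin subunits. Their 11 tested probes had a median shared part of 0.02 and a median turning part of -0.00. An unadjusted p under 0.05 was found for 2 of 11 in the shared part (13.9% of all probes). In the turning part it was found for 1 of 11 (13.8% of all probes). The median within-orientation SD was 0.83 for these 11 probes, against 1.25 for all tested probes. It was 0.40 for the 5 AMPA probes, with Gria2 at 2.05, and 1.49 for the 4 NMDA probes, against 1.38 for the 12 GABA-A probes. Array medians of the AMPA probes stayed between -0.36 and 0.36.

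Among the AMPA subunits Gria1 and Gria2 lay on opposite sides. Gria2 makes AMPA receptors that contain it nearly impermeable to calcium. It read -2.82, -0.47, -1.70 and -4.72 on replicates 1 to 4 and -3.03, 1.51, -3.29 and -0.60 on replicates 5 to 8. It was negative on 7 of 8 arrays, and replicate 6 was the exception. Its shared part was -1.89 ± 0.61 (n = 8, adjusted p = 0.244), the lowest of the receptors. Gria1 read 1.37, 0.36, 1.59 and -0.34 on replicates 1 to 4 and 0.21, 3.00, 0.98 and 1.66 on replicates 5 to 8. It was positive on 7 of 8 arrays, with a shared part of 1.10 ± 0.38 (n = 8, adjusted p = 0.263). Its other probe, untested with 5 values, read -1.74 and -0.18 on replicates 1 and 2 and 0.31, -1.45 and -0.72 on replicates 5, 6 and 8, negative on 4 of 5 arrays. Gria4 stayed within -0.54 and 0.38 on every array, with a shared part of 0.02 ± 0.27.

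No kainate or NMDA subunit probe passed adjustment in either part. The median within-orientation SD was 0.50 for the 2 kainate probes and 1.49 for the 4 NMDA probes. Grik2, for the GluK2 subunit, was positive on 8 of 8 arrays, from 0.04 to 1.39, with a shared part of 0.52 ± 0.29 (adjusted p = 0.447). Grik5 read -0.27 ± 0.29. Of the NMDA subunits, Grin2c and Grin2a had the highest and lowest shared parts, 0.21 ± 0.52 and -0.44 ± 0.67, and Grin2a leaned on replicate 8 at -5.04 against -0.53 to 1.04 elsewhere. Grin3b, an NMDA subunit that lowers calcium flow, read 1.28, 0.59, -0.35 and 2.96 on replicates 1 to 4 and -0.29, -2.51, 0.25 and -1.11 on replicates 5 to 8. The orientations overlapped, and its turning part was -1.02 ± 0.44 (n = 8, adjusted p = 0.337). Grin2b, Grik1, Grik3 and the delta subunit gene Grid1 had too few values to be tested. Grm8, the only metabotropic glutamate receptor tested of 3, read 0.12 ± 0.43 in the shared part and -0.62 ± 0.43 in the turning part (n = 6). Grid2ip, the scaffold gene that fits the rule by its symbol, had a turning part of -1.10 ± 0.37 (n = 7, adjusted p = 0.222).

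Nicotinic receptors are cation channels opened by acetylcholine, in muscle (Chrna1, Chrnb1, Chrnd, Chrne, Chrng) and in neurons. Of 14 probes 13 were tested, with a median shared part of -0.10 and a median turning part of -0.27, 10 of 13 negative. Chrnb2, which with alpha-4 forms the most common nicotinic receptor of the brain, read -1.43, -2.15, -2.39 and -1.12 on replicates 1 to 4 and -5.06, 0.53, -2.004 and -0.83 on replicates 5 to 8. It was negative on 7 of 8 arrays, with a shared part of -1.81 ± 0.54 (n = 8, adjusted p = 0.231). Chrna4, its partner, is read by a pair of probes at 0.80 ± 0.63 and -0.10 ± 0.60. Chrna9, a subunit known from inner ear hair cells, read 1.14, 0.79 and 0.37 on replicates 1, 2 and 4 and -1.50, -2.45 and -1.48 on replicates 5, 6 and 8. Its signs were opposite without exception, with a turning part of -1.29 ± 0.36 (n = 6, adjusted p = 0.150).

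The embryonic muscle subunit Chrng read 2.24, 3.18, 1.08 and 1.44 on replicates 1 to 4 and 1.23, -1.93, -0.26 and -1.72 on replicates 5 to 8. Replicate 5 lay among the Cy3 arrays, and the turning part was -1.33 ± 0.42 (n = 8, adjusted p = 0.187). Chrna6, known from dopamine neurons, had a turning part of -1.06 ± 0.46 (adjusted p = 0.337), with replicate 2 at 3.34 apart from -0.12 to 0.29 on the other Cy3 arrays. Without replicate 2 that part was -0.64.

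Muscarinic receptors couple acetylcholine to G proteins, and all 5 probes of 4 genes were tested. Their median turning part was 0.48, with 1 of 5 negative. Chrm2 read -0.84, -1.81, -1.15 and -2.11 on replicates 1 to 4 and 0.52, 0.01 and -0.47 on replicates 6 to 8. The sets did not overlap, though replicate 8 was negative as well. Its turning part was 0.75 ± 0.33 (n = 7, adjusted p = 0.359) and its shared part -0.73 ± 0.33 (adjusted p = 0.368). Chrm3 had the highest shared part of the class, 0.25 ± 0.56 (n = 6).

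Serotonin receptors are G-protein-coupled but for the Htr3 channels. Of 15 probes for 14 genes 10 were tested, with a median shared part of 0.00 and a median turning part of -0.48. Htr2c, a receptor found chiefly in choroid plexus and brain neurons, read 2.66, 3.67 and 4.25 on replicates 2 to 4 and -0.77, 1.72 and -0.98 on replicates 5, 6 and 8. The sets did not overlap, and replicate 6 was positive too. Its shared part of 1.76 ± 0.48 (adjusted p = 0.228) was the highest of the receptors, and its turning part was -1.77 ± 0.48 (n = 6, adjusted p = 0.140). Its other probe had values on 2 arrays, 0.29 and 0.34.

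Htr2b, a close relative of Htr2c, also lay higher with exposed RNA in Cy3. It read 0.98, 0.95, 2.31 and 1.48 on replicates 1 to 4 and -2.06, -2.45 and 0.27 on replicates 5, 6 and 8. The sets did not overlap, and the turning part was -1.42 ± 0.42 (n = 7, adjusted p = 0.158). The third of this subfamily, Htr2a, had 4 values and was not tested. Htr5a and Htr5b, which belong to a common subfamily, behaved differently. Htr5b read -2.19, -0.25, -3.38 and -0.96 on replicates 1 to 4 and -0.23, -1.42, -1.61 and -0.52 on replicates 5 to 8, negative on 8 of 8 arrays. Its shared part was -1.32 ± 0.39 (n = 8, adjusted p = 0.231). Htr5a had a shared part of -0.01 ± 0.45 and a turning part of -1.36 ± 0.45 (n = 7, adjusted p = 0.213), with 1.08, 0.52 and 2.47 on replicates 2 to 4 and 0.53, -2.45, -1.56 and -1.99 on replicates 5 to 8. The channel genes Htr3a and Htr3b had turning parts of 0.77 ± 0.63 and 0.85 ± 0.40.

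Dopamine, adrenergic and opioid receptors are all coupled to G proteins. Drd1, the main receptor through which dopamine raises cyclic AMP, had 3 probes. Probe L20336 read -0.46, 3.56 and 3.49 on replicates 1, 2 and 4 and 0.03, 1.64, 1.95 and 1.36 on replicates 5 to 8, with a shared part of 1.72 ± 0.54 (n = 7, adjusted p = 0.238). It was positive on 6 of 7 arrays, and on replicate 3 it stood at the highest value of the array, read as not computable. Probe AF171079 of the same gene read -0.26 ± 0.43 and was negative on 4 of 8 arrays. It had -2.47 and -1.43 on replicates 2 and 4, where the computable ratios of the first were highest. The third probe, untested, read 2.44, 0.38, -1.57 and 0.565 on replicates 1 to 4 and 0.85 on replicate 5. Drd2, Drd3 and Drd4 had shared parts of -0.23, 0.12 and 0.07, and none was at an unadjusted p under 0.05 in either part.

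Oprl1, the nociceptin receptor, read -0.18, -1.78, -3.02 and -2.30 on replicates 1 to 4 and -0.64, 1.87, 1.54 and 0.98 on replicates 5 to 8. The orientations overlapped, as replicate 1 lay above replicate 5. Its turning part of 1.38 ± 0.41 (n = 8, adjusted p = 0.150) was the highest of the receptors. Without the r arrays that part was 0.95 (limma, adjusted p = 0.666). Oprd1, the delta opioid receptor, had a shared part of 0.53 ± 0.36. Adra2c, the only adrenergic receptor tested of 2, read -0.61 ± 0.48 in the shared part and -0.62 ± 0.48 in the turning part.

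**Figure D4:**
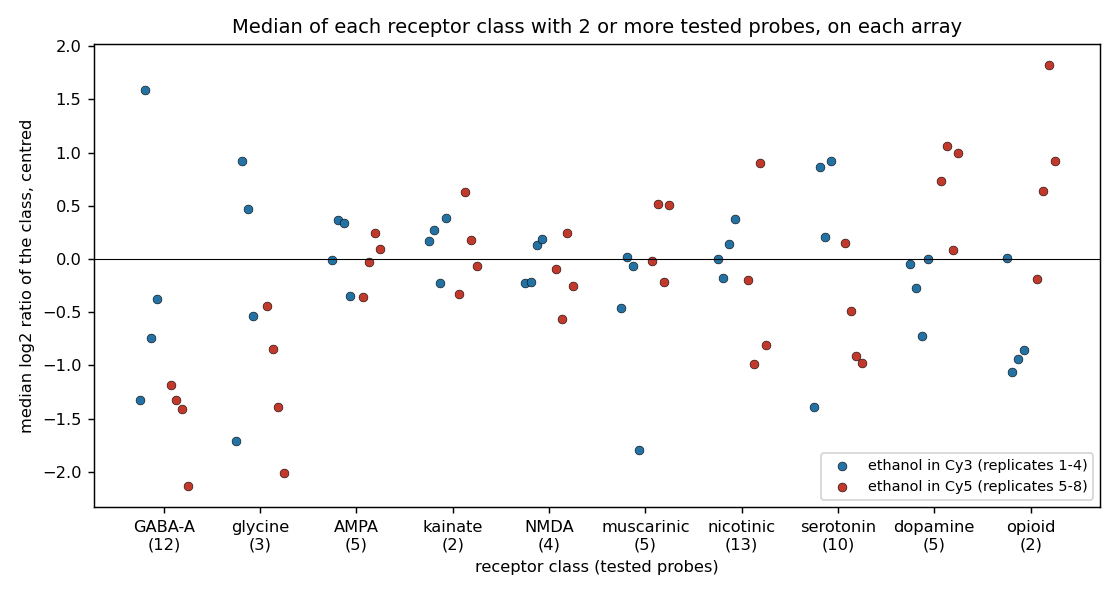
Median centred log2 ratio (vertical axis) of each receptor class with at least 2 tested probes, on each array, with exposed RNA in Cy3 in blue and in Cy5 in red. GABA-A medians lie between -2.14 and -1.19 on the Cy5 arrays, and those of AMPA, kainate and NMDA probes stay between -0.57 and 0.63 on all arrays.

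Across the classes, the 41 probes of ion channel subunits had a median turning part of -0.13 and a median shared part of -0.18. The 23 probes of G-protein-coupled receptors had 0.03 in both parts. Without the GABA-A subunits the other 53 probes had a median turning part of -0.10, and 11 of them were at an unadjusted p under 0.05 (13.8% of all probes). The 22 tested probes not named by the rule for single genes had shared parts from -1.19 to 0.73 and turning parts from -0.96 to 0.85.

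Genes read by 2 tested probes show how far probes of a gene can differ. Of the 6 such genes, Gabra2 had turning parts of 1.10 ± 0.48 (n = 7, adjusted p = 0.358) and -0.99 ± 0.81 (n = 7). The first probe, AK021280, read -2.24, -1.80 and -0.42 on replicates 1 to 3 and 0.48, -1.21, 0.95 and 2.63 on replicates 5 to 8. The second read 1.78, 5.31, -1.47 and -0.55 on replicates 1 to 4 and -1.14, 1.44 and -2.47 on replicates 5, 7 and 8. On replicates 1, 2, 5 and 8 they had opposite signs, and averaged per array they gave a turning part of -0.04. Gabrb2 read 0.23 ± 0.49 and -0.83 ± 0.70 in the turning part. Gria3, an AMPA subunit, read 0.42 ± 0.27 and -0.37 ± 0.28 in the shared part. Chrm1 read 0.12 ± 0.40 and -0.31 ± 0.45 there, and the probes of Chrna4 and Drd1 also lay on opposite sides of 0. The shared parts were -0.39 ± 0.48 and 0.27 ± 0.81 for Gabra2, and 0.08 ± 0.49 and -0.33 ± 0.70 for Gabrb2. In the shared part the members of each of the 6 pairs thus had opposite signs, though none of these values passed. For Gabra2, Gabrb2 and Chrm1 the probes differed there by less than the larger SE. In the turning part the probes of Chrm1 (0.48 and 0.45) and of Chrna4 (1.09 and 0.66) had the same sign. Those of Gabra2, Gabrb2, Gria3 and Drd1 had opposite signs there.

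**Figure D5:**
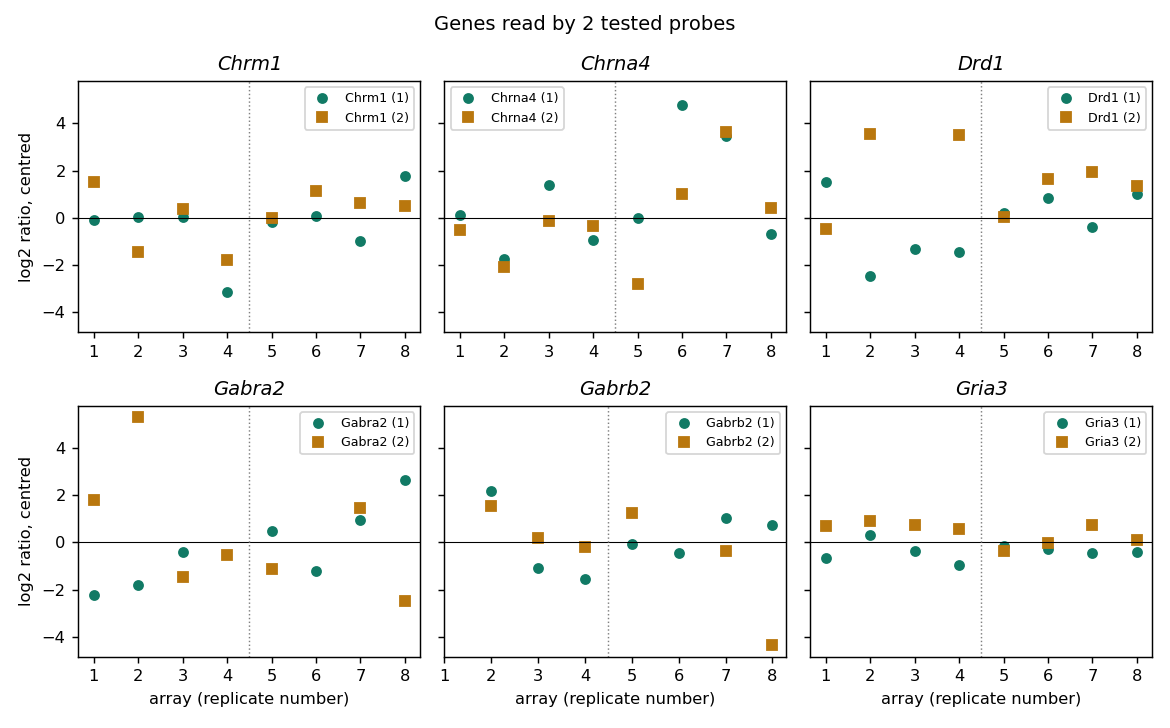
Centred log2 ratios (vertical axis) on the 8 arrays (horizontal axis) for the 6 receptor genes with 2 tested probes, the first probe as green circles and the second as brown squares, with a dotted line between the dye orientations. The Gria3 probes stay within 1 log2 unit of 0, while those of Drd1 and Gabra2 lie on opposite sides of 0 on several arrays.

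Probes with too few values were 23, for 18 genes with no tested probe and for 5 other probes of tested genes. They had values on 2 to 6 arrays, from -4.04 to 8.27. Of these 11 had fewer than 3 values only among the arrays with exposed RNA in Cy5, 6 only among those with exposed RNA in Cy3 and 6 in both. The genes were Adra1b, Chrna5, Drd5, Gabra5, Gabra6, Gabrd, Gabrr1, Grid1, Grik1, Grik3, Grin2b, Grm2, Grm3, Htr1d, Htr2a, Htr6, Htr7 and Oprk1.

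Proteins that anchor receptors or travel with them were represented by 24 tested probes for 22 of 37 listed genes. Their median turning part was -0.24 with 16 of 24 negative (43.1% of all probes were), and 5 were at an unadjusted p under 0.05 (13.8% of all probes). Cacng3, an auxiliary subunit that carries AMPA receptors to the membrane, read 2.76, 6.17, 3.52 and 1.71 on replicates 1 to 4 and -0.61, -1.66, -0.86 and -4.19 on replicates 5 to 8. Its signs were opposite on all arrays, and its turning part of -2.68 ± 0.55 (n = 8) passed over all probes (adjusted p = 0.0422). Its relative Cacng2 read 2.93, 4.39 and 0.20 on replicates 2 to 4 and -4.61, -1.64 and -3.48 on replicates 6 to 8, with a turning part of -2.87 ± 0.62 (n = 6, adjusted p = 0.073), while another Cacng2 probe had -0.01 ± 0.57. Dlg3, a synaptic scaffold of NMDA receptors, was negative on 7 of 7 arrays with a shared part of -2.70 ± 0.57 (adjusted p = 0.169).

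Enzymes and transporters that make, load, take up or break down transmitters had 23 tested probes for 18 of 35 listed genes. Their median turning part was -0.23 with 17 of 23 negative (43.1% of all probes), and 4 were at an unadjusted p under 0.05 (13.8% of all probes), none of them past adjustment. Slc32a1, which loads GABA and glycine into vesicles, had a turning part of -1.31 ± 0.37 (n = 7, adjusted p = 0.145). Th, the first enzyme of dopamine synthesis, had -2.32 ± 0.65 (n = 6, adjusted p = 0.151). Both lists thus had medians below that of all probes, 0.11, as did the receptor probes together at -0.13. The list medians were not recomputed under the alternatives.

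Cell type markers are given by counts and medians. Single genes are named where an unadjusted p was under 0.01 in either part, some with markers of the other side. Their part in the receptor results was not tested. Neuronal markers had a median shared part of -0.56 (4 of 6 probes negative), with array medians from -1.80 to -0.40 in Cy3 and -0.88 to 0.50 in Cy5. Their lowest was Dcx, of migrating neurons, at -1.88 ± 0.46 (adjusted p = 0.180), while Map2 had 0.42 ± 0.30 and Eno2 0.01 ± 0.28. Astrocyte and radial glia markers had a median shared part of -0.66 (6 of 8 negative), with array medians from -1.17 to -0.05. Among them Clu had -1.83 ± 0.57 and S100b -1.28 ± 0.36, while Fabp7 had 0.32 ± 0.27 and a Slc1a3 probe 0.01 ± 0.29. Progenitor markers had a median shared part of 0.69 (2 of 8 negative), with array medians from 0.19 to 1.88. The median turning parts of these lists were 0.41 (2 of 6 negative), -0.19 (6 of 8) and -0.02 (5 of 8). S100b had a turning part of 1.24 ± 0.36 (limma, adjusted p = 0.139), against the side of most of its list. Of the 2 Pax6 probes of the progenitor list, 1 had 3.82 ± 0.84 (adjusted p = 0.0572) and the other 0.56 ± 0.56. Oligodendrocyte lineage markers had a median shared part of 0.25 and turning part of 0.08 over 6 probes. Microglia and macrophages had medians of -0.52 and 0.42 in the shared and turning part (3 probes, 2 and 1 negative). Among them C1qa had -1.24 ± 0.38 and 1.39 ± 0.38, while Cd68 had 0.37 ± 0.55 and -0.46 ± 0.55. Endothelial and mural cells had -0.14 and 0.00 (6 probes, 4 and 3 negative). Of these Cdh5 had a turning part of -1.51 ± 0.39 and Cldn5 0.52 ± 0.51. Meningeal fibroblasts had -0.21 and -0.08 (2 probes, 2 negative in each part).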

How the data were processed

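Cortical neurosphere RNA of control and ethanol-exposed cultures was measured on 8 two-colour arrays. The authors deposited log2 ratios, 1 per probe and array, and the scanner, background correction and normalization were not given in the sources used here. Per the labels' protocols, RNA was labelled with a dendrimer kit for Cy3 and Cy5. An exact 0 (2565 to 5200 values per array) and each array's highest value (108 to 464) were read as ratios without a computable value and left out. Between 75.4% (replicate 1) and 87.1% (replicate 2) of values per array remained, with medians from -0.435 to 0.516, on which arrays were centred. The scale, log2 with 1 constant per array, was read from the values, while the direction stays unknown. No intensities were given, so the number of arrays limits the precision.

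Probes with values on 3 or more arrays of each orientation were fitted with limma 3.58.1 (lmFit, eBayes, R 4.3.3), with Benjamini-Hochberg adjustment over all 15345 tested probes and a threshold of 0.05. Errors marked ± beside a part are SEs of that fit. The fit was tested on simulated data. Symbols come from the platform's old annotation: 16635 probes had 1 symbol, 113 several and 4834 none, and 15957 were updated by Entrez number. The members and lists were chosen with earlier results of these data known. Single genes were named by rule: a receptor probe with an unadjusted p under 0.05 in either part, a single sign, orientations that do not overlap, several tested probes, or the highest or lowest shared part of its class, and of the other lists an unadjusted p under 0.01. The rule named 43 probes of 37 genes, and other receptor genes are named with values to account for their class. Alternatives changed the centring, scaling, missing values, array weights, arrays, blocking and probe averaging.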

Additional observations from a re-analysis of the deposited data

Results flagged for a closer look

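Gabrq differed between the dye orientations, with a turning part of -2.77 (limma, adjusted p = 0.00256). Among 62 sets of 4 arrays of a single orientation, over the named receptor probes with values on all 4 arrays, 3 held an array apart from the others, and chance flags about 1 in 20 sets. Gabra3 stood at -3.87 on replicate 1, while replicates 2 to 4, also with exposed RNA in Cy3, held 0.96 to 1.93. A Chrm1 probe, AJ006521, read -3.13 on replicate 4, against -0.07 to 0.03. Chrna6 read 3.34 on replicate 2, against -0.12 to 0.29.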

How the results depend on the processing

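Of 144 counts and medians over the receptor probes recomputed under the alternatives, 121 stayed within 1.5 times the count or within 0.21, the SD of the receptors' array medians, and 23 moved. In the turning part the median was 0.18 with the values as deposited. With values required on all 8 arrays, which leaves 37 receptor probes, it was 0.13, with 17 negative and 8 at an unadjusted p under 0.05, and 21 were negative in the shared part. Without the r arrays 54 probes were left, and 0 passed adjustment. At an unadjusted p under 0.05 were 3 in the shared part (5.56%, against 11.1% of all probes) and 4 in the turning part (7.41%, against 9.61%). Leaving out single arrays requires all 3 remaining arrays of that orientation and so tests 43 to 58 receptor probes. In the shared part it gave 6 to 11 at an unadjusted p under 0.05 (11.8% to 19.0%, against 11.6% to 15.6% of all probes). Negative there were 26 to 33 (50.9% to 63.0%, against 52.8% to 55.3%). In the turning part it gave 8 to 15 at an unadjusted p under 0.05, 20 to 33 negative, a median from -0.20 to 0.06, and 1 to 3 past adjustment, Gabra3 and Gabrb1 passing beside Gabrq without replicate 1. With a replicate block by the number in the array code, 0 passed adjustment in the turning part (Gabrq -2.68, adjusted p = 0.117). At an unadjusted p under 0.05 were 9 of 61 there (14.8%, against 11.1% of all probes). The deviations of arrays with the same code number correlated at 0.0161, -0.0354 and 0.04 in the 3 pairs, each under 0.1. The main fit did not take the numbers as pairs. These values cannot settle the pairing, because array noise may hide it and the sign to look for depends on the unknown direction. With 3 candidates per array, 4 of 6 arrays correlated best with their partner, which does not settle it either. Of 395 recomputed values of single probes, 390 kept their sign and their side of the threshold, 2 passed newly, 2 no longer passed (Gabrq, as above), and 1 reversed: Gabra2, at -0.037 when its probes were averaged. As only Gabrq passed in the main fit, keeping a side says little about size. With probes averaged, the shared part went from 1.72 to 0.58 for Drd1 and from -1.82 to -0.92 for Gabrg3. For Gria1 it went from 1.10 to 0.46, and these changes count as kept. No receptor passed in the shared part under any alternative. The remaining causes of these changes were not tested.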
